A study of Homo sapiens with 26 samples.

Results

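The genes described here are the nuclear genes of oxidative phosphorylation, that is, the genes on the chromosomes of the nucleus that encode the subunits of respiratory complexes I to V. They were chosen by name, as protein-coding genes whose symbol begins with NDUFA, NDUFB, NDUFC, NDUFS or NDUFV and a number, is SDHA, SDHB, SDHC or SDHD, or begins with UQCR, COX4 to COX8 or ATP5, and that had at least 10 counts per 1000000 counts of protein-coding genes (CPM) in at least 12 of the 26 libraries. Among 63086 gene identifiers, 89 carried such a symbol and 77 of these reached the level. Complex I had 34 of the 77 genes, complex II 4, complex III 9, complex IV 12 and complex V 18. NDUFA4 carries a complex I name but is a subunit of complex IV, and it was counted there. Statistical tests were made on the 76 genes with over 10 CPM in at least 12 of the 24 replicated libraries. The remaining gene, UQCRHL, is an intronless copy of UQCRH that reached this level in 11 libraries.

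The cells were HCT116, a human colorectal carcinoma line that here carried the plant F-box protein OsTIR1 under a tetracycline promoter. All 8 replicated groups lacked IGF2BP2 and IGF2BP3, which had been knocked out with Cas9 and propagated from single cells, and expressed mCherry-tagged IGF2BP1, an RNA-binding protein of messenger ribonucleoprotein granules, from a lentivirus in cells sorted through a narrow mCherry gate. The protein was wild-type (WT) or mutated in a disordered linker. Phosphomimetic forms carried a glutamate, meant to mimic phosphorylation, in place of a serine (S181E) or a tyrosine (Y396E). The RQ form carried 4 arginine-to-glutamine changes in the first linker. Each of the 4 populations received PBS (control) or was exposed to 500 µM sodium arsenite, an oxidative and proteotoxic stressor, for 2 h, with 3 libraries in each of the 8 groups. Parental HCT116 cells, which had neither the knockouts nor the transgene, gave 1 control and 1 arsenite library, so their values have no replicate error. The 3 libraries of a group came from dishes grown separately from 1 sorted population, so that p-values measure the spread between dishes, and a difference between populations cannot be told apart from a difference that arose when a population was made.

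Oxidative phosphorylation couples the oxidation of NADH and succinate to the synthesis of ATP across the inner mitochondrial membrane. Complex I (NADH dehydrogenase) and complex II (succinate dehydrogenase) pass electrons to ubiquinone, complex III (the cytochrome bc1 complex) passes them on to cytochrome c, complex IV (cytochrome c oxidase) reduces oxygen, and complex V (ATP synthase) uses the proton gradient that complexes I, III and IV build. Complexes I, III, IV and V each combine subunits made in the cytosol from nuclear messages with a few made inside the organelle from the mitochondrial genome, whereas complex II is entirely nuclear. Within complexes I, III, IV and V a small catalytic core, of bacterial ancestry and mostly of large proteins, is surrounded by small accessory subunits that serve assembly and stability.

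Levels are given below as CPM after scaling by the trimmed mean of M values. Total counts per library were between 22508145 and 50834401, and the oxidative phosphorylation genes held between 1.09 and 1.38% of them. Transcripts of the mitochondrial genome took 21.1 to 27.9% of the counts in the WT and RQ control libraries, 11.7 to 17.1% in the S181E and Y396E control libraries and 7.55 to 13.5% in the 12 arsenite libraries. For some comparisons the split of called genes under another scaling of the libraries is given beside the result. Other counts are given under the main scaling only. The third library of Y396E cells in arsenite stood apart, with counts for 13897 genes against 20850 to 23473 in the other 25. Several results that rest on it are also given without it. Of 9 markers of colorectal epithelium, 7 reached 1 CPM in some group (CDX1 and VIL1 did not, and KRT20 reached at most 2.54 CPM), and none of 4 blood cell markers did. Of 6 stromal and endothelial markers only COL1A1 did, between 7.43 and 10.9 CPM. In bulk RNA, fewer cells of a type and less RNA per cell cannot be told apart.

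Since many of these genes moved together, their start regions were read from RefSeq promoter windows on GRCh38.p14, each holding 250 bases before and 50 bases after an annotated start. Windows were found for 63 of the 76 tested genes and for 7508 of the 9099 genes tested in all. Nuclear respiratory factor 1 (NRF1), the ETS protein GABP and YY1 are the factors classically associated with these promoters, and their motifs were searched on both strands as GCGCATGC, CCGGAAG and AAGATGGCG. The NRF1 motif lay in 14 of the 63 windows (22.2%) and in 6.21% of the windows of all tested genes. The ETS motif lay in 20 (31.7%, against 22.0%) and the YY1 motif in 7 (11.1%, against 4.85%). The 120 bases before the annotated start are printed below for 3 genes that fell in arsenite and hold such motifs, ATP5PF (chr21:25735055-25735174, minus strand), ATP5ME (chr4:674277-674396, minus strand) and SDHD (chr11:112086753-112086872, plus strand), and for ATP5F1A, which rose and holds none of them (chr18:46104228-46104347, minus strand). Capitals mark the motifs, 5′ to 3′.
ATP5PF: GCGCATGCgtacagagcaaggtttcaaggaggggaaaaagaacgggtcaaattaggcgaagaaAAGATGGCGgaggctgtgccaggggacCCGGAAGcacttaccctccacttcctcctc
ATP5ME: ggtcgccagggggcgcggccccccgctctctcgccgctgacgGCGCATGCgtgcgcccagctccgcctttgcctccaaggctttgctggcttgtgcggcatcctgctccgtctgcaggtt
SDHD: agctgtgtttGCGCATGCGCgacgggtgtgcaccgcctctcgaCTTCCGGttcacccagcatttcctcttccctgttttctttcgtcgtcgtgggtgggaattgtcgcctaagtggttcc
ATP5F1A: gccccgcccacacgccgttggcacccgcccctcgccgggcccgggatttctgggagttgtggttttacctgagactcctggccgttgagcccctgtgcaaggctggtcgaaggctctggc
ATP5PF held the 3 motifs in the order NRF1, YY1, ETS, and in SDHD matches to the NRF1 motif on the 2 strands overlapped, with an ETS motif on the opposite strand after them. Of the genes that rose in WT cells in arsenite, 8 had a window, of which 0 held the NRF1 motif, 1 the ETS motif and 1 the YY1 motif. Of those that fell, 48 had a window, of which 11, 17 and 4 held them. Of those not called, 7 had a window, of which 3, 2 and 2 held them. These shares are descriptions of the letters in the windows, and a link between motifs and direction of change was not tested.

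In unstressed WT cells the genes differed over a wide range per length of transcript. On the scale of TPM (transcript counts per length of annotated exons, over nuclear protein-coding genes), UQCRH, the hinge protein of complex III, was highest at 2428 ± 145 (SD, n = 3), followed by the complex V subunit ATP5ME at 1591 ± 73.9 and by NDUFS5, ATP5PD and COX8A at 1297 ± 31.0, 1283 ± 7.75 and 1266 ± 71.4, whose intervals of mean ± SD overlapped. The lowest tested genes were NDUFA9 at 4.82 ± 0.287, SDHA at 8.69 ± 1.58 and NDUFS1 at 10.8 ± 1.55 TPM. The length used is that of all annotated exons together, 8635 bases for NDUFA9 and 11824 for NDUFS1, with coding lengths of 1131 and 2181. This order and the medians below therefore depend on the annotation. The median was 134 TPM in complex I, 117 in II, 164 in III, 567 in IV and 351 in V. Reads that fell on exons of more than 1 gene were not counted. NDUFV2, a core subunit of complex I, had 14 to 47 counts per library and shared 42.6% of its exon bases with a long noncoding RNA on the same strand, and NDUFA7 had 0 counts in every library and shared 77.9%. The tested genes SDHA (69.6%), NDUFB8 (65.4%), ATP5PO (63.8%), NDUFA13 (36.5%), COX8A (35.4%), COX6A1 (32.6%) and ATP5MF (30.1%) shared over 30% of their exon bases in the same way, so their levels are lower limits and their changes are uncertain. Of the isoform pairs of complex IV, the general forms COX4I1, COX6A1, COX6B1 and COX7A2 were well detected, while the tissue forms were at or near 0, with at most 3 counts in a library for COX4I2, 0 for COX6A2, 1 for COX7A1, 80 for COX6B2 and 165 for NDUFA4L2.

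In WT cells, arsenite lowered most nuclear oxidative phosphorylation messages within 2 h and raised the messages of a few large subunits. A gene was called when the edgeR quasi-likelihood test gave an adjusted p under 0.05 and the level changed by over 20%. Of the 76 genes, 58 fell and 10 rose, with a median log2 fold change of -0.52. Of all 9099 genes tested, 35.9% fell and 36.3% rose (72.2% called in all), with a median of -0.01. In 62 of the 76 genes all 3 arsenite libraries lay below all 3 control libraries and in 12 all lay above, against 43.6% and 42.5% of all genes (86.1% together). When libraries were scaled by their totals alone, the median of all genes shifted to 0.15 and that of the oxidative phosphorylation genes to -0.35, with 46 falling and 12 rising, and 61.6% of all called genes were then higher in place of 50.3%.

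Summed over its genes, complex IV fell most relative to its level. Its summed level was 3193, 3690.2 and 3136 CPM in the 3 control libraries and 2128, 2139 and 2121 CPM in the 3 arsenite libraries. Complex I went from 3662, 4014 and 3635 CPM to 2889, 2933 and 2908 CPM, and complex III from 1768, 1953 and 1748 CPM to 1456, 1477 and 1454 CPM. The groups did not overlap in any of these. Complex II, the smallest, changed from 349.6, 349.6 and 338 CPM to 296, 299 and 296 CPM, also without overlap. For complex V, 4618, 4892 and 4506 CPM in control and 4393, 4422 and 4330.4 CPM in arsenite, the groups were closest relative to their level, and 2 of its abundant genes, ATP5F1A and ATP5F1B, rose. With 3 libraries a group, an exact permutation test cannot go below p = 0.10, and none was made on these sums. The second WT control library was the highest in complexes I, III, IV and V. In the parental line the complex IV sum was 3380.3 CPM in the control and 2294 CPM in the arsenite library, and the complex V sum was 5163 and 4774 CPM.

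**Figure D1:**
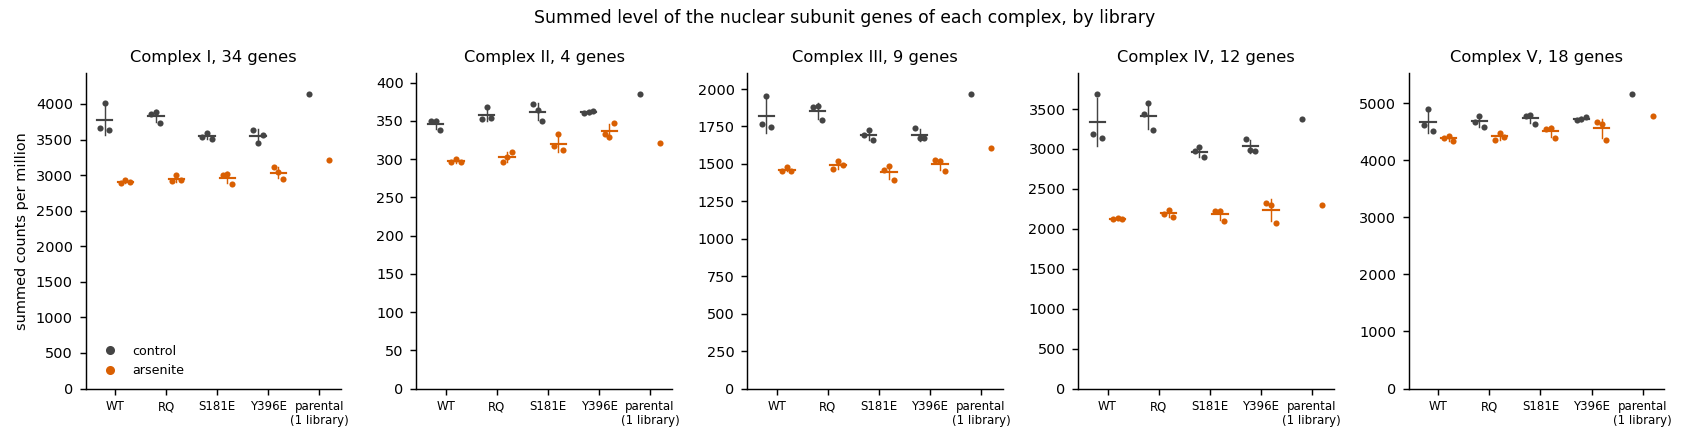
Summed CPM of the nuclear subunit genes of each respiratory complex (vertical axis, from 0) in every library of the 4 populations and the parental line, control in grey and arsenite in orange. Points are libraries, horizontal bars are means and vertical bars are SD (n = 3; 1 library for each parental group). Relative to its level, complex IV shows the widest gap between control and arsenite, from 3339.7 ± 305 to 2129 ± 9.02 CPM (mean ± SD) in WT cells, and complex V the narrowest, from 4672 ± 198 to 4382 ± 46.9 CPM.

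The responses of single genes were spread widely within complexes I, II, III and V and narrowly in complex IV. In complex I, 24 of 34 genes fell and 5 rose (median -0.46). In complex II, 2 of 4 fell and 1 rose (-0.25), in complex III 6 of 8 fell and 2 rose (-0.54), and in complex V 14 of 18 fell and 2 rose (-0.47). In complex IV all 12 fell (-0.65), from -0.80 for COX7A2 to -0.36 for COX5A, so that no complex IV gene changed in the opposite direction.

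**Figure D2:**
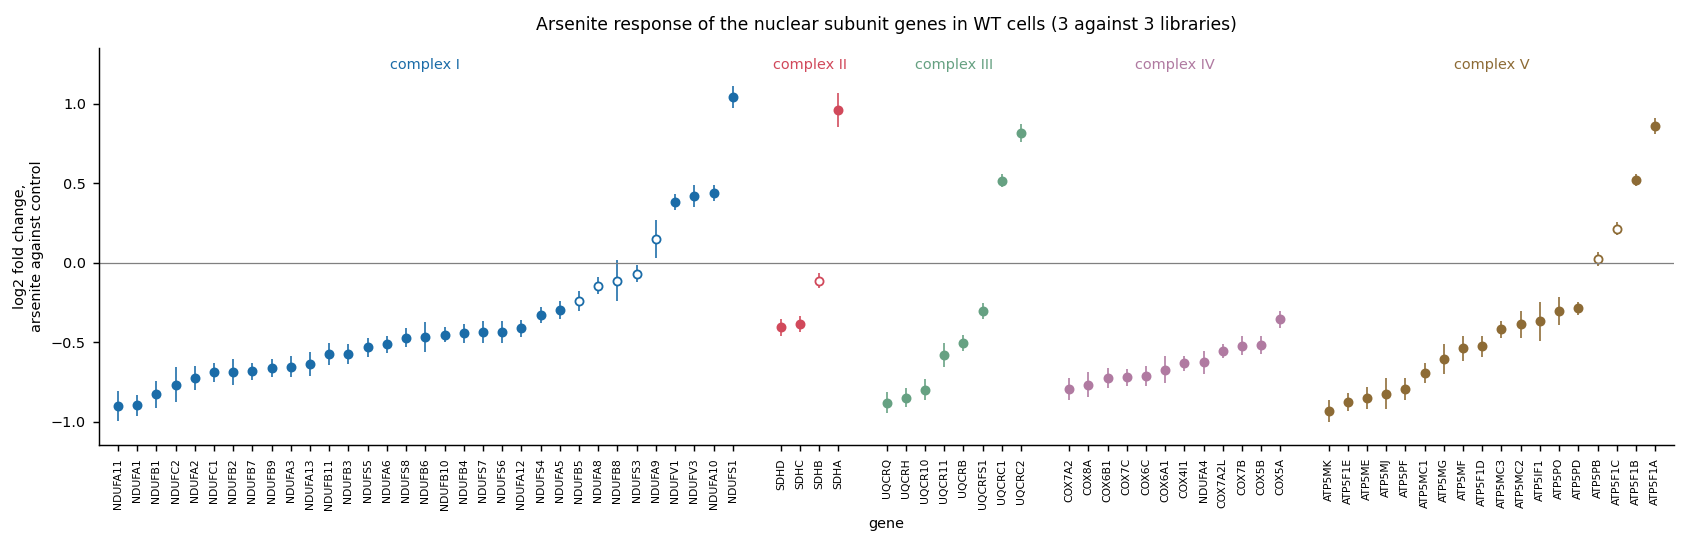
Log2 fold change, arsenite against control, of 75 of the 76 tested genes in WT cells (vertical axis), ordered by complex and by size of change (horizontal axis). Points are estimates from 3 against 3 libraries, bars are SE, filled points passed the test and the 20% limit and open points did not. The 9 risers shown stand at the right end of complexes I, II, III and V, up to 1.04 for NDUFS1, and complex IV has none.

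Most of the genes that rose encode catalytic or core subunits. NDUFS1 (chr2:206114817-206159509, minus strand), the iron-sulphur subunit through which electrons leave the NADH-binding site of complex I, was at 55.1, 44.5 and 52.3 CPM in the control libraries and 101, 103 and 108 CPM in arsenite. Its libraries did not overlap, and its log2 fold change was 1.04 ± 0.07 (SE, edgeR adjusted p = 6.28e-13). Other core subunits of complex I did not move alike. NDUFV1, which binds NADH and the flavin, rose by 0.38 ± 0.05, NDUFS3 was at -0.07 ± 0.05 (SE, not called), and NDUFS7 and NDUFS8, small iron-sulphur subunits, changed by -0.44 ± 0.07 and -0.47 ± 0.06. Of the 28 accessory subunits 2 rose (NDUFA10 and NDUFV3, 0.44 and 0.42, named for being the only such risers) and 22 fell. The largest fall in complex I was that of NDUFA11, a membrane-arm accessory subunit. It had 54.8, 56.1 and 50.6 CPM in control and 27.7, 28.2 and 30.3 CPM in arsenite, a log2 fold change of -0.90 ± 0.09 (SE, edgeR adjusted p = 3.18e-09).

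Complex II was divided as well. SDHA (chr5:218303-257082, plus strand), the flavoprotein that oxidises succinate, was at 10.7, 7.94 and 9.46 CPM in control and at 17.1, 18.4 and 19.4 CPM in arsenite, 0.96 ± 0.11 (SE, edgeR adjusted p = 1.11e-08) on the log2 scale, with the reservation on its shared exons given above. SDHD (chr11:112086872-112120016, plus strand), a membrane anchor, went from 110.5, 116 and 109.8 CPM to 80.8, 85.2 and 86.6 CPM, -0.41 ± 0.05 (SE, edgeR adjusted p = 2.13e-07). The groups did not overlap in either gene. SDHC, the other anchor, changed by -0.39 ± 0.05, and the iron-sulphur subunit SDHB was at -0.11 ± 0.05 and was not called.

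In complex III, UQCRC2 (chr16:21953288-21983660, plus strand), a large core protein on the matrix side, rose from 141, 123 and 140.0 CPM to 232, 243 and 235 CPM, 0.81 ± 0.06 (SE, edgeR adjusted p = 2.05e-12). Its partner UQCRC1 rose by 0.52 ± 0.04. UQCRFS1, the Rieske iron-sulphur protein, changed by -0.31 ± 0.05, and the small subunit UQCRQ (chr5:132866630-132868847, plus strand) showed the largest fall, from 229, 269 and 212 CPM to 126, 130.1 and 127 CPM, -0.88 ± 0.07 (SE, edgeR adjusted p = 8.63e-12). UQCRHL, the untested copy of UQCRH, was listed at 10.4, 13.5 and 11.2 CPM in control and 6.67, 7.32 and 5.99 CPM in arsenite. Reads from UQCRH and its copy may not be fully separable.

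In complex IV the largest change was that of COX7A2 (chr6:75237675-75250323, minus strand), a small transmembrane subunit, from 318, 389 and 319.7 CPM to 198, 199.6 and 191 CPM, -0.80 ± 0.07 (SE, edgeR adjusted p = 1.06e-10). The conserved nuclear subunits COX4I1, COX5A and COX5B changed by -0.63 ± 0.05, -0.36 ± 0.05 and -0.52 ± 0.06. COX7A2L, which takes part in supercomplexes of complexes III and IV, changed by -0.56 ± 0.04, COX6A1 by -0.67 ± 0.09, COX6B1 by -0.72 ± 0.06 and NDUFA4 by -0.63 ± 0.07. In each of these 8 genes the 3 arsenite libraries lay below the 3 control libraries.

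In complex V the large alpha and beta subunits of the catalytic head rose, while small subunits of the central stalk and the membrane part fell. ATP5F1A (chr18:46080248-46104233, minus strand), the alpha subunit, rose from 425, 371 and 430.1 CPM to 757, 738 and 724 CPM, 0.86 ± 0.05 (SE, edgeR adjusted p = 6.57e-14), and ATP5F1B, the catalytic beta subunit, from 861, 788 and 837 CPM to 1189, 1186 and 1177 CPM, 0.52 ± 0.04 (SE, edgeR adjusted p = 5.98e-12). The gamma subunit ATP5F1C was at 0.21 ± 0.04 and did not pass the 20% limit, and ATP5F1D and ATP5F1E, the delta and epsilon subunits of the stalk, changed by -0.53 ± 0.07 and -0.88 ± 0.06. The 3 genes ATP5MC1, ATP5MC2 and ATP5MC3, which encode the same mature subunit c of the membrane ring, changed by -0.69 ± 0.06, -0.39 ± 0.09 and -0.42 ± 0.05. ATP5MK (chr10:103389041-103396492, minus strand), a small membrane subunit, showed the largest fall of any of the 76 genes, from 288, 355 and 287 CPM to 159, 168 and 157 CPM, -0.93 ± 0.07 (SE, edgeR adjusted p = 7.61e-12). ATP5IF1, the inhibitor that blocks ATP hydrolysis when the proton gradient collapses, was at 132, 147 and 126 CPM in control and 105, 104 and 104 CPM in arsenite, a change of -0.37 ± 0.12 (SE, edgeR adjusted p = 0.00837).

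The direction of change followed the length of the coding sequence, in these genes and in the transcriptome as a whole. The 10 genes that rose in WT cells had coding sequences of 1065 to 2181 bases (median 1429.5), the 58 that fell had 153 to 822 (median 337.5), and the 8 that were not called had 516 to 1131 (median 780.0), as read from the canonical transcripts. Oxidative phosphorylation genes are short, with a median coding length of 409.5 bases against 1386 for all tested genes. Among genes coding for under 300 bases, the 22 oxidative phosphorylation genes had a median log2 fold change of -0.75 and 170 other genes -0.77, of which 97.6% were below 0. From 300 to 400 bases the medians were -0.52 (15 genes) and -0.67 (254 other genes), from 400 to 500 bases -0.42 (11) and -0.56 (322), from 500 to 700 bases -0.41 (12) and -0.43 (835), and from 700 to 1000 bases -0.07 (5) and -0.24 (1273). The oxidative phosphorylation genes thus had the higher median in each range that held any of them, least so under 300 and from 500 to 700 bases and most above 1000 bases, 0.44 (7 genes) against -0.03 from 1000 to 1500 bases and 0.91 (4 genes) against 0.33 from 1500 to 2500 bases. Across genes, Spearman's rho between coding length and log2 fold change was 0.854 over the 76 genes and 0.547 over 9023 others. These points share the same 6 libraries and are not independent, so the coefficients are descriptions without a p-value.

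**Figure D3:**
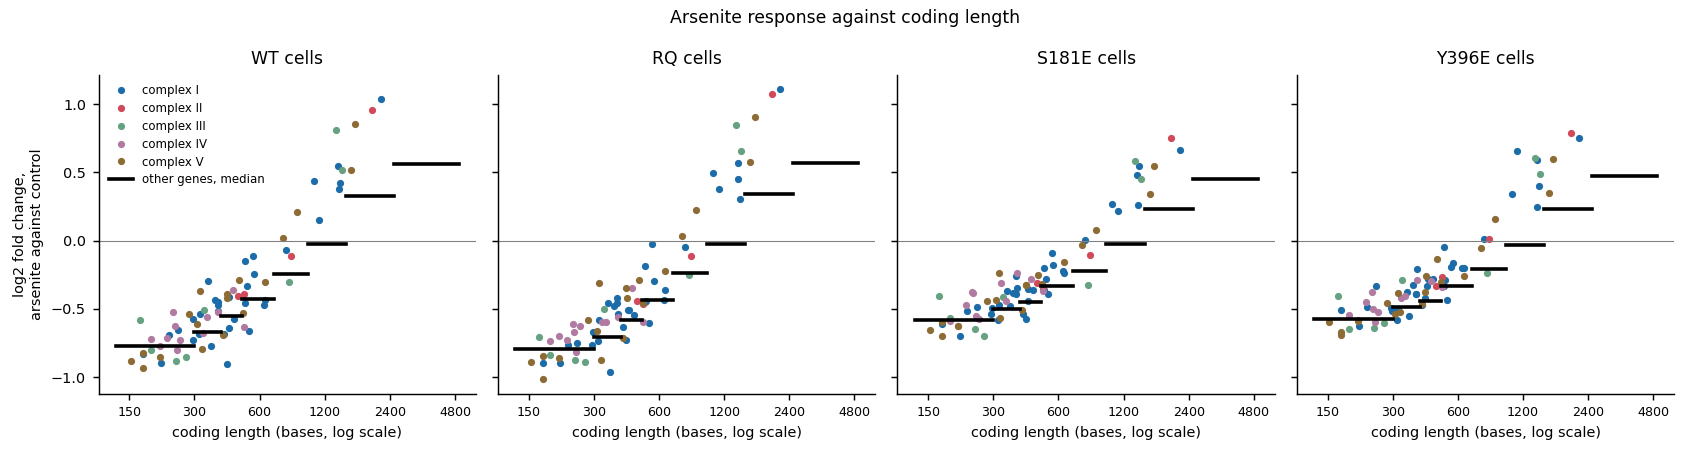
Log2 fold change, arsenite against control (vertical axis), against coding length in bases (horizontal axis, log scale) in each of the 4 populations. Coloured points are the 76 oxidative phosphorylation genes by complex, and black lines are medians of the other tested genes within a range of coding lengths. In WT cells the lines climb from -0.77 below 300 bases to 0.56 above 2500 bases, and the genes climb with them and more steeply.

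When each library was corrected for its trend with coding length, a correction chosen after the trend had been seen, the group as a whole no longer lay below other genes. The median of the 76 genes in WT cells was then 0.10, with 16 genes higher and 1 lower (all genes, -0.02). A correction on the longer annotated exon length of the files, which includes untranslated parts, left 36 lower and 15 higher with a median of -0.19. Shares of all genes called under either correction are not given here, so these counts have no base rate beside them. Complex IV, at -0.65 without the correction, had a median of 0.06 with it and no called gene. Relative to genes of like coding length, NDUFS1 (0.62 ± 0.06), SDHA (0.60 ± 0.10), UQCRC2 (0.75 ± 0.05), ATP5F1A (0.63 ± 0.04) and UQCRC1 (0.40 ± 0.04) were still higher in arsenite, and NDUFA11 (-0.33 ± 0.08) was the 1 gene still lower. ATP5IF1 and ATP5F1C, which had fallen or had not been called, were higher on this scale (0.31 ± 0.11 and 0.42 ± 0.04, SE). What the trend with coding length comes from was not tested.

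The response had a like median in RQ cells and medians closer to 0 in the phosphomimetic populations, by an amount that depended on the scaling. In RQ cells 57 genes fell and 11 rose (median -0.51; 72.9% of all genes called, 35.8% lower and 37.1% higher), in S181E cells 51 fell and 9 rose (-0.37; 65.3% of all genes called, 33.3% lower and 32% higher) and in Y396E cells 51 fell and 10 rose (-0.34; 65.8% of all genes called, 32.9% lower and 32.9% higher). In all 4 populations 48 genes fell and 9 rose, 6 were called in none, and no gene fell in one and rose in another. The same counts were not made over all genes, so they show no trait particular to this group. Without the third Y396E arsenite library, 54 of the 76 genes were called for arsenite in Y396E cells. The counts over all 4 populations were not recomputed without it. Complex IV had the lowest median and complex II the highest in each, though complexes III and IV were alike in S181E cells, at medians for IV and II of -0.62 and -0.27 in RQ, -0.41 and -0.21 in S181E and -0.43 and -0.13 in Y396E cells. Scaled by library totals alone, the medians were -0.35 (WT), -0.34 (RQ), -0.32 (S181E) and -0.28 (Y396E), where those of all genes were 0.15, 0.16, 0.02 and 0.03. On that scale 49 genes fell and 12 rose in RQ cells, and 62.0% of all calls were higher in place of 50.9%. With the coding length correction the medians were 0.09, 0.09 and 0.09, with 15, 10 and 13 genes higher and 1, 0 and 0 lower. Shares of all genes called on that scale are not given here. In the parental line, 64 of the 76 genes were lower and 12 higher in the arsenite library than in the control library, with a median log2 ratio of -0.47 that has no replicate check. For this pair of libraries the same count was not made over all genes.

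Without stress, the populations differed at few of these genes. In S181E control cells 8 of the 76 genes differed from WT (3 higher and 5 lower) where 31.1% of all genes did (15.7% higher, 15.4% lower), and in Y396E control cells 8 did (3 higher, 5 lower) where 28.6% of all genes did (14.5% higher, 14.2% lower). Both comparisons use the same 3 WT libraries and are therefore not independent. Scaled by library totals alone, the split was 14 higher and 3 lower in S181E and 12 higher and 3 lower in Y396E, where the median of all genes moved to 0.18 and 0.14 and 83.6 and 81.1% of all calls were higher, in place of 50.4 and 50.5%. The counts also rested on the second WT control library, without which 5 genes were called in S181E and 3 in Y396E cells.

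The 3 genes that differed most lie on the long arm of chromosome 8. NDUFB9 (chr8:124539101-124580648, plus strand), an accessory subunit of the membrane arm of complex I, was at 482, 570.0 and 488 CPM in WT control, 307, 309 and 317 CPM in S181E and 323, 303 and 305 CPM in Y396E cells. UQCRB (chr8:96222947-96235546, minus strand), a complex III subunit next to the ubiquinone site, was at 334, 360.2 and 344 CPM, then 214, 198 and 200.3 CPM and 212, 199 and 187 CPM. COX6C (chr8:99877865-99893707, minus strand), a small complex IV subunit, was at 223, 271 and 216 CPM, then 145, 139 and 149 CPM and 155, 149 and 151 CPM. In all 3 genes every S181E and Y396E library lay below every WT library, which held for 26.8 and 24.5% of all genes. RQ control libraries, at 542, 499 and 486 CPM for NDUFB9, 378, 349 and 342 CPM for UQCRB and 248, 259 and 240.2 CPM for COX6C, overlapped the WT values, and the parental control library had 534, 397 and 262 CPM. The log2 differences from WT in S181E were -0.72 ± 0.06 (SE, edgeR adjusted p = 3.87e-10) for NDUFB9, -0.76 ± 0.05 (SE, edgeR adjusted p = 2.50e-11) for UQCRB and -0.71 ± 0.06 (SE, edgeR adjusted p = 1.72e-09) for COX6C. In Y396E cells they were -0.73 ± 0.06, -0.80 ± 0.05 and -0.63 ± 0.06. These are the only 3 of the 76 genes on chromosome 8, and many other genes of that chromosome were lower too. Of its 322 tested genes, 195 were lower and 32 higher in S181E (median -0.42), and 201 lower and 26 higher in Y396E (-0.41). Off chromosome 8, 1395 of 8777 genes were higher and 1209 lower in S181E.

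**Figure D4:**
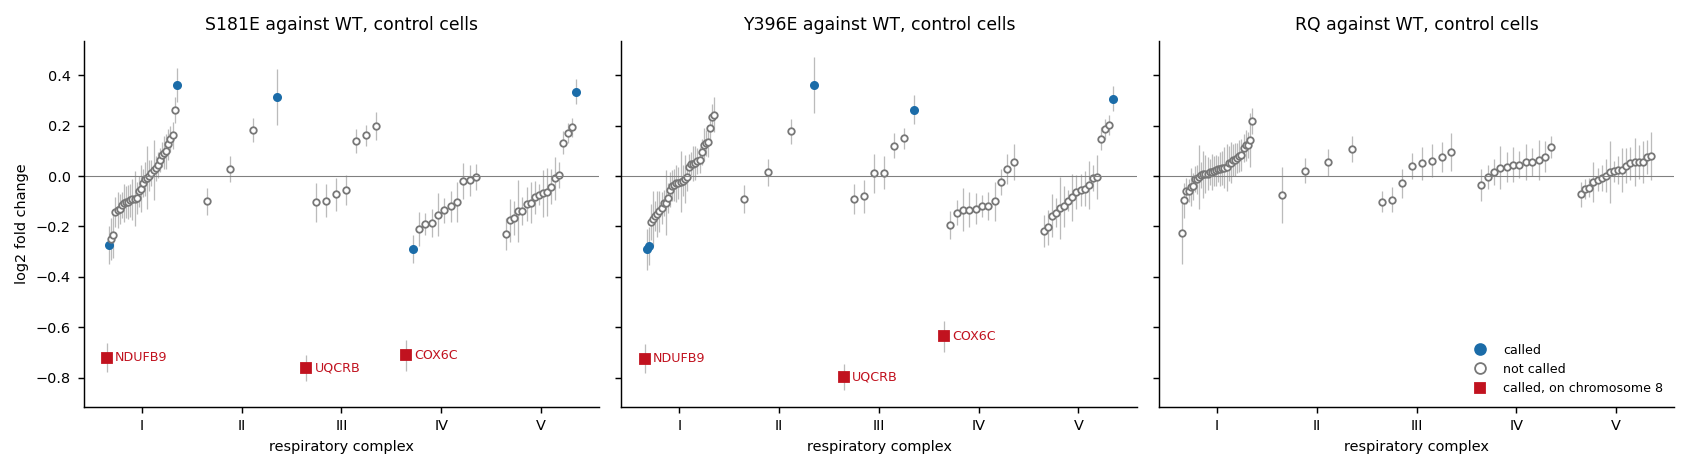
Log2 fold change against WT (vertical axis) of the 76 tested genes by complex (horizontal axis) in S181E, Y396E and RQ cells without stress. Points are estimates from 3 against 3 libraries and bars are SE, with called genes in blue, called genes on chromosome 8 as red squares and genes not called as open circles. NDUFB9, UQCRB and COX6C stand apart between -0.80 and -0.63 in S181E and Y396E cells, and no gene is called in RQ cells.

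The remaining differences were small. In S181E cells NDUFS1 (0.36 ± 0.07, edgeR adjusted p = 1.41e-04), ATP5F1A (0.33 ± 0.05, edgeR adjusted p = 7.10e-06) and SDHA (0.31 ± 0.11, edgeR adjusted p = 0.0211) were higher, with overlapping libraries for SDHA, and COX5B (-0.29 ± 0.06) and NDUFA13 (-0.27 ± 0.08) were lower. In Y396E cells SDHA (0.36 ± 0.11), ATP5F1A (0.31 ± 0.05) and UQCRC2 (0.26 ± 0.06) were higher and NDUFA13 (-0.28 ± 0.08) and NDUFB1 (-0.29 ± 0.08) lower. NDUFA13 and NDUFB1 are accessory subunits of complex I that are named because so few genes were called. Without the second WT control library, SDHA (0.21, edgeR adjusted p = 0.145), COX5B (-0.23, 0.00212) and NDUFA13 (-0.18, 0.0582) were no longer called in S181E, and in Y396E cells the calls left were the 3 genes of chromosome 8. NDUFS1 at 69.0, 63.8 and 62.7 CPM in S181E control cells was above WT, RQ and the parental library (50.1 CPM). ATP5F1A was at 522, 509 and 515 CPM in S181E and 481, 511 and 523 CPM in Y396E control cells, above all 3 WT libraries.

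In arsenite the difference on chromosome 8 remained. In S181E cells the 3 genes NDUFB9 (-0.45 ± 0.06), UQCRB (-0.66 ± 0.05) and COX6C (-0.47 ± 0.06) were the only ones of the 76 that differed from WT, where 13.7% of all genes did (5.32% higher, 8.42% lower). Scaled by library totals alone, 3 were lower and 1 higher, and 55.9% of all calls were higher in place of 38.7%. UQCRB, for example, had 241, 248 and 239 CPM in WT and 151, 162 and 147 CPM in S181E cells. In Y396E cells 8 genes differed (21.7% of all genes, 9.77% higher and 11.9% lower). The same 3 were lower, at -0.49 ± 0.06, -0.58 ± 0.05 and -0.37 ± 0.06, and NDUFA9 (0.49 ± 0.11), NDUFA11 (0.33 ± 0.09), SDHB (0.30 ± 0.05), NDUFA3 (0.29 ± 0.07) and NDUFS7 (0.29 ± 0.07) were higher. NDUFA9, at 22.9, 21.3 and 33.2 CPM, was highest in the third library, which stands apart in its number of detected genes, and without it the difference was 0.26 (edgeR adjusted p = 0.0111), under the 20% limit. SDHB (0.24) and NDUFA3 (0.22) also fell under the limit without that library, while 5 of the 8 calls stayed and 10 genes were called in all. Y396E and S181E cells did not differ at any of the 76 genes by edgeR or DESeq2, in control (0 genes at an unadjusted p under 0.05) or in arsenite (9 genes), and 0% of all genes were called in either.

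**Figure D5:**
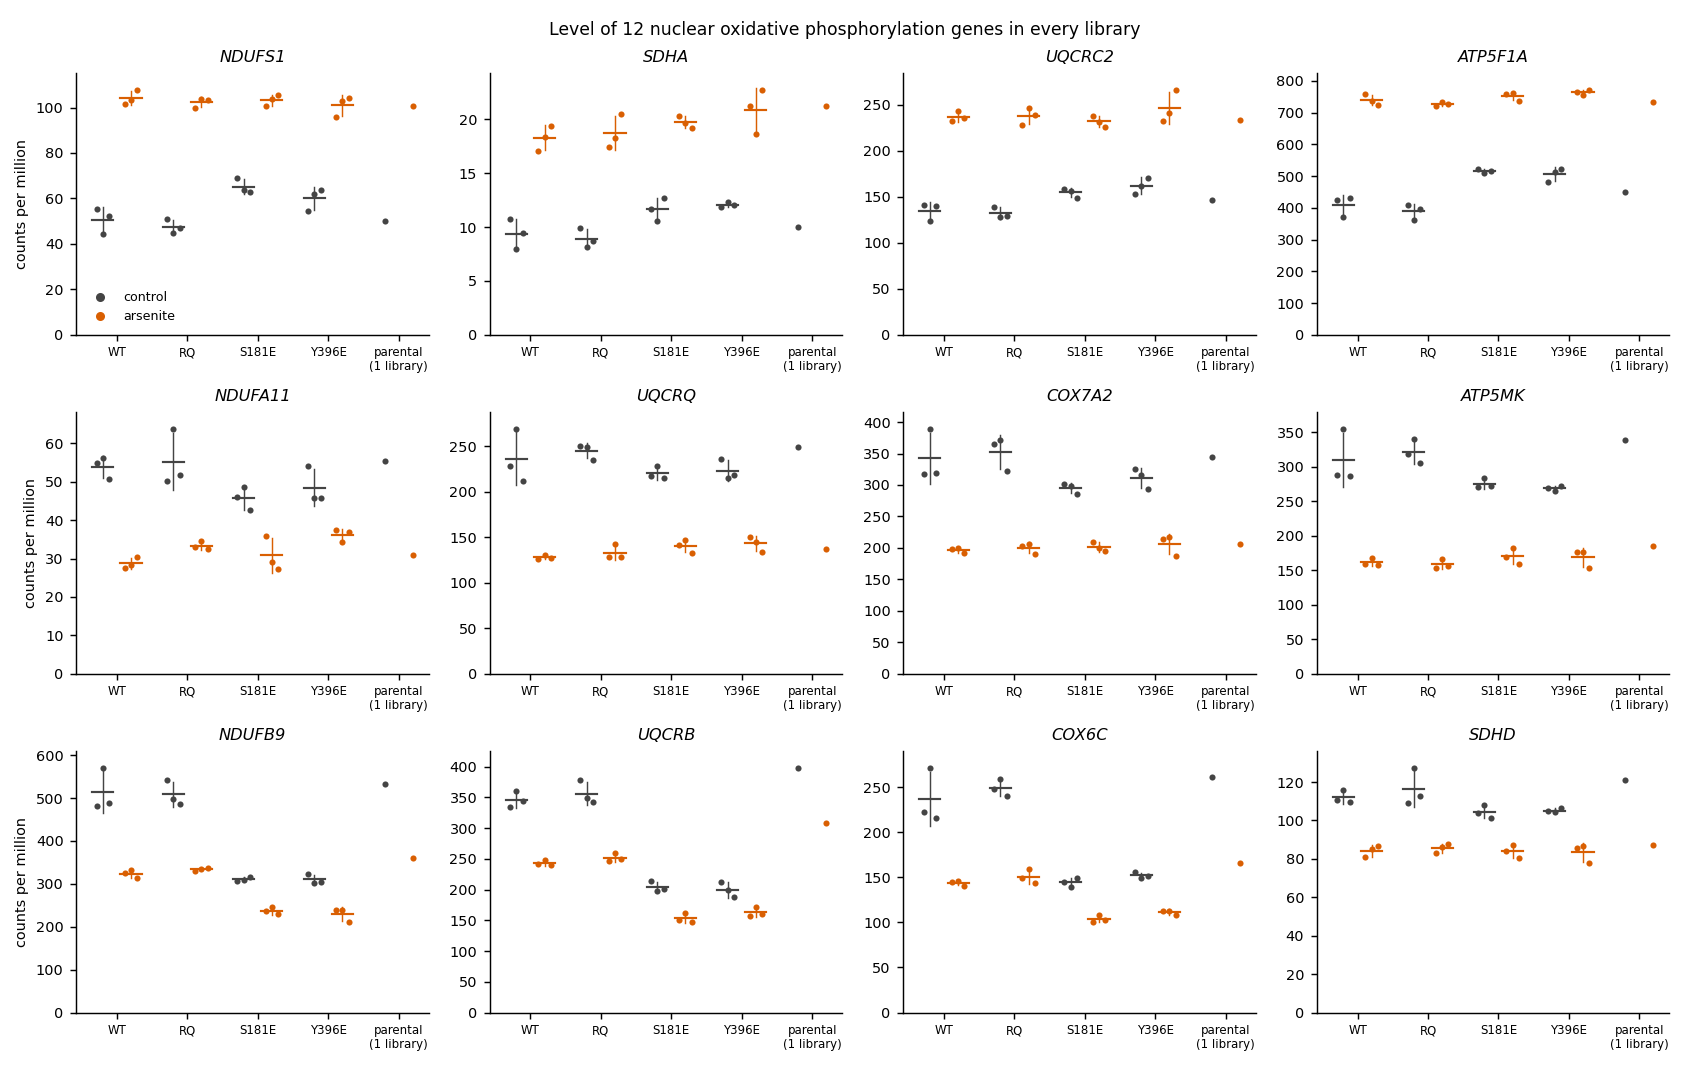
Level in CPM (vertical axis, from 0) of 12 genes in every library by population (horizontal axis), control in grey and arsenite in orange. Points are libraries, horizontal bars are means and vertical bars are SD (n = 3; 1 library for each parental group). The upper row shows 4 risers, the middle row 4 of the largest falls, and the lower row the 3 genes of chromosome 8, whose S181E and Y396E control libraries lie near or below the level of WT cells in arsenite, beside SDHD.

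The arsenite responses themselves were compared between populations as differences of log2 fold changes. Relative to WT, the response of the 76 genes had a median difference of 0.13 for S181E and 0.14 for Y396E cells (all genes, -0.03 and -0.02), and of 0.068 and 0.087 without the second WT control library. In S181E cells 5 genes differed in their response, where 16.4% of all genes did (6.98% upwards, 9.41% downwards). NDUFS1 (-0.37 ± 0.10, edgeR adjusted p = 0.00954) and ATP5F1A (-0.31 ± 0.07, edgeR adjusted p = 0.00457) rose less, and COX6A1 (0.36 ± 0.12, edgeR adjusted p = 0.0398), COX5B (0.29 ± 0.08, edgeR adjusted p = 0.0153) and NDUFB9 (0.27 ± 0.08, edgeR adjusted p = 0.0216) fell less than in WT cells. For NDUFS1 the arsenite levels were close (101, 104 and 105 CPM against 101, 103 and 108 CPM in WT) and the control levels were not. The same held for ATP5F1A in S181E cells, at 759, 761 and 737 CPM in arsenite against 757, 738 and 724 CPM in WT. It also held for COX5B, at 160, 167 and 156 CPM against 159, 163 and 164 CPM. These 3 differences in response thus lay in the control levels. COX6A1 and NDUFB9 libraries did not overlap between S181E and WT cells in either treatment. In Y396E cells 15 genes differed, 14 of them upwards (21.5% of all genes, 10.3% upwards and 11.1% downwards), among them NDUFA11 (0.48 ± 0.13, edgeR adjusted p = 0.0107) and COX4I1 (0.30 ± 0.07, edgeR adjusted p = 0.00383), and NDUFS1 was again lower (-0.29 ± 0.10, edgeR adjusted p = 0.0308). COX4I1 fell from 704, 790.3 and 695 CPM to 473, 467 and 468 CPM in WT cells and from 682, 647 and 649 CPM to 546, 530.1 and 488 CPM in Y396E cells. Scaled by library totals alone, the direction of the counts turned, with 0 genes upwards and 5 downwards in S181E and 1 upwards and 4 downwards in Y396E. The medians were then 0.01 and 0.03, those of all genes -0.14 and -0.12, and 12.98 and 18.2% of all calls were upwards in place of 42.6 and 48.1%. The counts depended strongly on the WT control libraries, since 1 gene was called in S181E (NDUFS1) and 1 in Y396E (NDUFA11) without the second one, and 17 and 24 without the third. Without the third Y396E arsenite library 26 genes were called in Y396E. With the coding length correction the counts were 1 and 2 and the medians -0.03 and 0.01.

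At the limits used for a call, adjusted p and a change of over 20%, RQ cells were not told apart from WT cells at any of these genes. By edgeR and by DESeq2, 0 of the 76 genes differed in control (1.43% of all genes by edgeR; 4 of the 76 at an unadjusted p under 0.05), 0 in arsenite (1.52%; 2 genes) and 0 in the size of the arsenite response (0.22%; 2 genes). The medians of the 76 genes were 0.03, 0.03 and 0.00, and the median SE was 0.06 in control, 0.06 in arsenite and 0.09 for the response, all on the log2 scale. Differences under 20% were not called in any comparison.

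The mitochondrial partners of these subunits fell as well. All 13 subunits encoded in the mitochondrial genome fell in WT cells in arsenite (median -0.93), from -0.76 ± 0.11 for cytochrome b (MT-CYB) to -1.91 ± 0.22 for MT-ND6, the one subunit encoded on the opposite strand. They were also lower without stress in S181E (12 of 13, median -0.81) and Y396E cells (11 of 13, -0.65), against 15.4 and 14.2% of all genes, where 5 of the 73 nuclear genes off chromosome 8 were called in each, and their median in RQ cells was 0.18. Their levels were read in poly(A)-selected RNA.

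The other genes of the pathway, listed by role and chosen with earlier results of these data known, did not all follow the subunits. Their counts stand against 35.9% of all genes lower and 36.3% higher in WT cells in arsenite. The lists were not compared with genes of like coding length. A difference between lists therefore cannot be told apart from the trend with coding length given above. Of 53 tested assembly factors, which build the complexes without remaining in them, 35 fell and 5 rose in WT cells in arsenite (median -0.40), with 1 higher and 17 lower of 23 for complex IV and 4 higher and 7 lower of 15 for complex I. Of 6 electron carriers and subunits outside the symbol rule (cytochrome c, cytochrome c1, the acyl carrier NDUFAB1 and the electron transfer flavoprotein genes), 2 fell and 0 rose (-0.03). Ubiquinone synthesis was divided, 3 higher and 3 lower of 11 (0.01). The tricarboxylic acid cycle and pyruvate entry rose in 13 of 20 genes and fell in 2 (0.41). OGDH, a subunit of the 2-oxoglutarate dehydrogenase complex, was at 1.43 ± 0.09 and citrate synthase (CS) at 0.60 ± 0.05. The 2 that fell were the small pyruvate carriers MPC1 (-0.68 ± 0.22) and MPC2 (-0.45 ± 0.10). Among 15 tested regulators of mitochondrial gene expression 9 rose and 2 fell (0.35). The rises included LRPPRC, which stabilises mitochondrial messages (2.08 ± 0.06), the mitochondrial RNA polymerase POLRMT (1.61 ± 0.07) and NRF1 itself (0.70 ± 0.10), and the falls were those of SLIRP, the small partner of LRPPRC (-0.67 ± 0.08), and TFAM (-0.27 ± 0.05). Without stress, the cycle genes were higher in 7 of 20 cases in S181E and 6 of 20 in Y396E cells, against 15.7 and 14.5% of all genes. These counts were not recomputed under library totals, with which 83.6 and 81.1% of all calls were higher.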

How the data were processed

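Poly(A) RNA from clarified lysates, the input of an immunoprecipitation, was sequenced as single 100-base reads from a strand-specific library. Per the methods of the study and the submitters' processing notes, the authors aligned reads to hg38 with STAR 2.7.11b and counted them per gene with featureCounts of Subread 2.0.6 on GENCODE 46 exons, leaving out reads that fitted several places or genes. The deposited values are raw counts per gene and library, which were used as deposited.

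Symbols came from GENCODE 44 by gene identifier (62541 of 63086 matched). Protein-coding genes with over 10 CPM in at least 12 of 24 libraries (9099) were scaled by the trimmed mean of M values (TMM, factors 0.865 to 1.09) and fitted with edgeR 4.0.16 (quasi-likelihood, 1 mean per group, R 4.3.3). A gene was called at a Benjamini-Hochberg adjusted p under 0.05 over all 9099 genes and a change of over 20%. The 2 parental libraries entered no test. Log2 fold changes are fitted values at the default prior count of edgeR, and SE is approximate. A prior count of 2 was used only for log CPM, in the length corrections and the comparison of replicates. No 2 libraries were identical among 24 replicate pairs, and all differed beyond counting noise. The fit was tested on simulated data. Coding lengths are those of GENCODE 44 canonical transcripts.

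The genes named are, per complex, the largest called rise and fall in WT arsenite and in S181E against WT control, the genes on chromosome 8, the core subunits, isoform groups with ATP5IF1, any gene called in RQ against WT, and the 5 with the lowest p for a difference between responses. Others were chosen after their values were seen, to account for small counts of calls, for levels, or for the printed promoters. The members, lists and tests were chosen with earlier results of these data known. Alternatives were another scaling and filter, DESeq2 1.42.0, length and GC corrections, other thresholds, a replicate block, and leaving out each library. Same-numbered libraries deviated together in every pair (r over 0.1) in RQ against WT, in control and in arsenite. In other comparisons only some pairs did, up to 0.421 in Y396E against WT in control. Of 24 libraries, 23 were closest to their own number. The fit had no block, and counts of calls with a block are given at the end. The study's RIP-Seq data were not used here, and 1 gene of the rule is not reported here.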

Additional observations from a re-analysis of the deposited data

Results flagged for a closer look

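Among the genes named by rule, the arsenite response of 10 differed between a phosphomimetic population and WT cells by the test of the difference itself, an interaction term in the edgeR fit. One of the naming rules took the 5 genes with the lowest p in this same test, and all 5 are among the 10. The count of 10 is thus partly set by the choice and is not a share to compare with that of all genes. Of all genes, 16.4% were called in S181E and 21.5% in Y396E cells. In S181E minus WT, NDUFS1 stood at -0.37 ± 0.10 and ATP5F1A at -0.31 ± 0.07 (log2 difference ± SE), having risen by 1.04 and 0.86 in WT and by 0.67 and 0.55 in S181E cells. COX5B stood at 0.29 ± 0.08, COX6A1 at 0.36 ± 0.12 and NDUFB9 at 0.27 ± 0.08. In Y396E minus WT, NDUFS1 stood at -0.29 ± 0.10, NDUFA11 at 0.48 ± 0.13, COX4I1 at 0.30 ± 0.07, NDUFS8 at 0.28 ± 0.08, ATP5MK at 0.27 ± 0.10 and COX6C at 0.26 ± 0.09. Both differences use the same WT libraries. Without the second WT control library only NDUFS1 in S181E and NDUFA11 in Y396E were still called. Scaled by library totals alone, 0 of the 76 genes differed upwards and 5 downwards in S181E, and 1 upwards and 4 downwards in Y396E. With the coding length correction 1 and 2 genes were called.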

How the results depend on the processing

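With each library left out in turn, the number of called genes among the 76 ranged, for arsenite, from 65 to 69 (WT), 66 to 69 (RQ cells), 59 to 63 (S181E cells) and 54 to 64 (Y396E cells). It ranged from 5 to 12 for S181E, 3 to 11 for Y396E and 0 to 1 for RQ against WT in control, from 3 to 3, 7 to 10 and 0 to 0 in arsenite, and from 0 to 0 (control) and 0 to 2 (arsenite) for Y396E against S181E. For the difference of responses it ranged from 1 to 17 (S181E), 1 to 26 (Y396E) and 0 to 0 (RQ). With the coding length correction 17 genes were called for arsenite among WT cells, 16 for RQ, 10 for S181E and 13 for Y396E, 5 for Y396E against WT in control, and 1 and 2 for the S181E and Y396E differences. At a fold above 1.5, 33, 37, 13 and 15 were called for arsenite (same order), 3 and 3 for S181E and Y396E in control, 1 and 0 in arsenite and 0 and 0 for the differences. With no fold threshold 26 and 26 were called in control, 8 and 29 in arsenite, 1 for RQ in control, and 9 and 23 for the differences. Library totals gave 17 and 15 in control and 5 for the Y396E difference. Corrections for exon length gave 3 and 5 for the differences and 5 for Y396E in control, and for GC and length 3, 7 and 5. Without chromosome 8, 5 and 5 were called in control and 0 and 5 in arsenite. Fitting only the compared groups gave 8 and 3 for the differences, DESeq2 8 for S181E, a filter of 1 CPM 9 and no filter 8 for Y396E. The cause was not tested. Leaving out genes with over 30% shared exon bases, like the coding length correction chosen after seeing the data, kept each count within 1.5 times. For single genes, 132 results gave 2995 values under 40 alternatives, of which 2636 kept direction and side, and all 23 changes of sign came from length corrections.

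Under the coding length correction, arsenite values in WT turned to 0.31 for ATP5IF1, 0.19 for ATP5MC2, 0.15 for ATP5MC3, 0.19 for COX5A, 0.091 for COX5B, 0.0065 for COX6B1, 0.049 for COX6C, 0.091 for COX7A2L, 0.12 for NDUFA4, 0.12 for SDHD and 0.15 for UQCRB, to 0.014 (S181E) and 0.054 (Y396E) for COX4I1, and among Y396E cells to 0.18 for COX5B and 0.030 for NDUFA11. The medians turned to 0.10 (WT), 0.088 (RQ), 0.088 (S181E) and 0.092 (Y396E), and to -0.027 for the S181E difference. With the exon length correction COX5B was at 0.093 in WT and 0.11 in Y396E, COX6A1 at 0.048 and NDUFS8 at 0.11 in WT, and with GC and length COX5B at 0.060 and 0.090, COX6A1 at 0.025 and NDUFS8 at 0.14.

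Replicate numbers are shared between groups, but the labels tie them to no shared day or culture, and the deviations of same-numbered libraries correlated over 0.1 in 12 of 36 pairs (r from -0.0434 to 0.525), among them all 3 of RQ against WT in control and all 3 in arsenite, with 23 of 24 libraries closest to their own number. With a replicate block, 12 genes were called for the Y396E difference in place of 15 and the other counts of calls were the same, 0 for RQ against WT included. Genes at few counts, such as SDHA at 7.94 to 10.7 CPM in WT control, are limited by depth.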
